A study of Mus musculus with 5 samples.

Results

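The cytosolic ribosomal protein genes were followed in mouse bone marrow-derived macrophages during exposure to lipopolysaccharide (LPS), the endotoxin of Gram-negative bacteria. Members were taken by name: probes with a single gene symbol, measured on all 5 arrays, whose symbol was Rpl or Rps followed by a number, or Rplp0, Rplp1, Rplp2 or Rpsa, leaving out the S6 kinases (Rps6k). This gave 73 of the 8637 genes measured, on 276 of 13782 named probes. The 73 were 22 proteins of the small subunit, 43 of the large subunit, and 8 paralogues or other symbols caught by the naming rule (Rpl22l1, Rpl36al, Rpl39l, Rpl3l, Rpl7l1, Rps19bp1, Rps23rg1 and Rps27l). 12 further subunit genes were not analysed here.

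Macrophages of C3H/ARC mice, grown from bone marrow in vitro with human CSF-1, on which macrophages depend for growth, were left untreated (0 h) or given LPS of Salmonella minnesota at 10 µg/ml for 0.5, 2, 7 or 21 h. Each time was hybridised to 1 two-colour cDNA array. Channel 2 held total RNA from C57BL6/J whole embryo of day 17.5 on every array, so the macrophages and the embryos differ in strain as well as in cell type. With no second array at any time, nothing could be tested, and the precision is limited by the small number of arrays. The spread between probes of one gene is the only error estimate, and it is technical.

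Each value below is a log2 ratio of macrophage over embryo RNA, minus the array's median and averaged over a gene's probes; a difference between times is a difference of such ratios. Base and direction of the deposited log ratios are not stated in the labels. They were read as log10 from their size, and as macrophage over embryo because of marker genes (at 21 h, 11 of 13 macrophage markers stood above the array median and 42 of 42 embryo markers below it). If the base was 2, every log2 ratio and difference below is 3.32 times too large. Fold values, and counts or shares beyond a fold limit, would then change by other amounts. At 0.5 h and 2 h, 8.23% and 14.6% of probes stood 2-fold or more above 0 h. These high values were concentrated in 94 of 207 runs of 96 consecutive probe numbers, called affected runs here, in which at least 10% of probes did so. The affected runs held 51.4% of the ribosomal protein probes and 45.3% of all probes.

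Ribosomal proteins, together with ribosomal RNA, build the small subunit, which decodes the mRNA, and the large subunit, which forms the peptide bond. In mammals most of their mRNAs begin with a C followed by a run of pyrimidines, the 5′ terminal oligopyrimidine (TOP) tract, through which the growth-controlling mTOR pathway and the protein LARP1 govern their translation and stability. Macrophages raise and lower protein synthesis as they are activated, and growth arrest under LPS is well known in these cells.

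The start-site regions are shown because the TOP tract lies there. Each line below gives 30 bases before and 30 bases after the annotated start, 5′ to 3′ on the gene's strand, from RefSeq (GRCm38.p6), with the longest run of C and T in capitals. The first 5 are subunit genes with long runs, Rpsa and Rps28 are subunit genes with short runs that stood far below their 0 h values at 21 h, and the last 3 are from the paralogues and other symbols.
Rpl35: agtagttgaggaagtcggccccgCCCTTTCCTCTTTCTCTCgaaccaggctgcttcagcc
Rps6: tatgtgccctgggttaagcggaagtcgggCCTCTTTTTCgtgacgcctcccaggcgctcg
Rps10: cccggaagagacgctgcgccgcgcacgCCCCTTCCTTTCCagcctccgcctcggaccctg
Rplp2: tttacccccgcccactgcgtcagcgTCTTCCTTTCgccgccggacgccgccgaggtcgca
Rpl4: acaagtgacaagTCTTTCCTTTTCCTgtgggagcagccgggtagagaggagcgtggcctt
Rpsa: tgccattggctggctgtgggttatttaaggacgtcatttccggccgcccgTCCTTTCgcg
Rps28: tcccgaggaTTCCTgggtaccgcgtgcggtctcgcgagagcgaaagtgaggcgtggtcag
Rps27l: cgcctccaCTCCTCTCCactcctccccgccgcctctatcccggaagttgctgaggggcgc
Rps19bp1: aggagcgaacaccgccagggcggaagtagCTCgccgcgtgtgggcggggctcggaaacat
Rpl3l: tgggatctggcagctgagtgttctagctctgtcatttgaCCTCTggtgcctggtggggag

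These regions lie at chr2:39005102-39005161 (minus strand) for Rpl35, chr4:86857338-86857397 (minus) for Rps6, chr17:27635215-27635274 (minus) for Rps10, chr7:141447621-141447680 (plus) for Rplp2, chr9:64173357-64173416 (plus) for Rpl4, chr9:120127736-120127795 (plus) for Rpsa, chr17:33824533-33824592 (minus) for Rps28, chr9:66946056-66946115 (plus) for Rps27l, chr15:80264277-80264336 (minus) for Rps19bp1 and chr17:24727796-24727855 (plus) for Rpl3l. RefSeq start-site sequences matched 59 members, 51 of them subunit genes. A C and T run of 8 or more bases was found in this window in 24 of 51 subunit genes (47.1%), in 4 of the 8 paralogues and other symbols, and in 22.8% of all 27025 promoters. The motifs, windows, run length and printed genes were chosen after the sequences and values had been seen, so these counts are a description.

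6 motifs were counted on the gene's strand in the last 80 bases of each promoter (30 before to 50 after the start). CTTTC was present in 49% of the subunit genes against 10.1% of all promoters, CTTCC in 41.2% against 16.4%, and CTCTTT in 27.5% against 2.95%. CCGGAAG, the core bound by ETS-family factors such as GABP, was present in 17.6% against 2.4%. AAGATGG, the core of the YY1 motif, was present in 5.88% (3 of 51 genes) against 1.57%. TATAAA was present in 7.84% (4 of 51) against 2.5%. On the other strand of the same window CTTTC stood in 11.8% of the subunit genes and 9.71% of all promoters. There CTTCC stood in 31.4% and 18.7%, CTCTTT in 1.96% and 3.01%, and CCGGAAG in 5.88% and 2.36%. AAGATGG stood there in 3.92% and 0.903%, and TATAAA in 0% and 1.28%. The motifs overlap each other, CTTTC and CTTCC being parts of the same C and T runs.

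The ribosomal protein genes stood below the embryo on every array. Their median was -0.54 at 0 h, -0.52 at 0.5 h, -0.69 at 2 h, -0.53 at 7 h and -0.77 at 21 h, whereas the median of all genes lay between -0.04 and -0.01. 62 of 73 were below the array median on all 5 arrays, a pattern held by 28.7% of all genes. Among them were 59 of the 65 subunit genes, and 3 of the 8 paralogues and other symbols. In bulk RNA, fewer cells of a type and less RNA per cell cannot be told apart, and these ratios are not abundances.

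**Figure D1:**
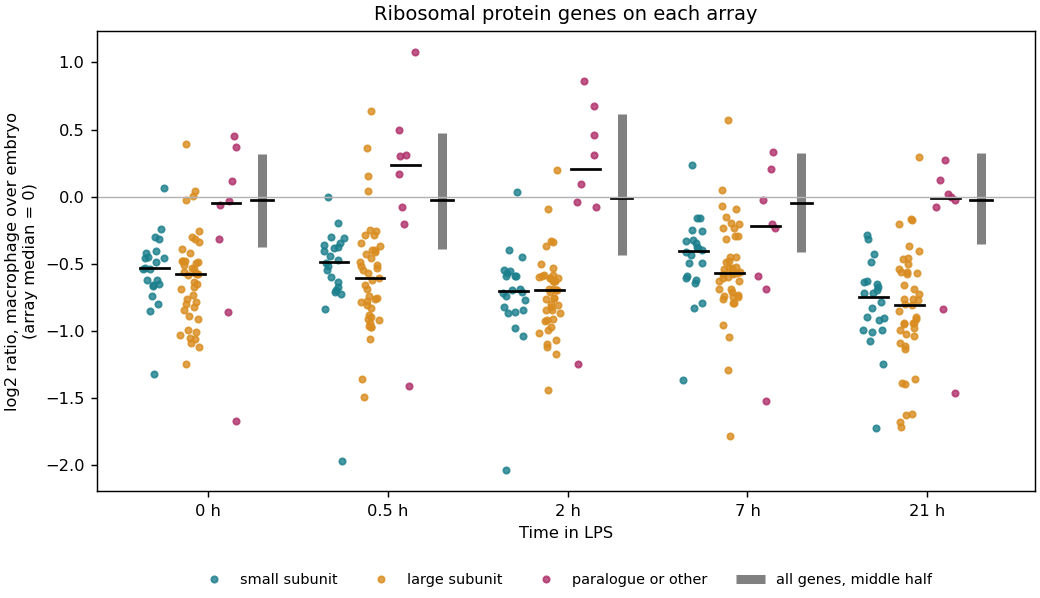
Each point is the log2 ratio of macrophage over embryo RNA of 1 ribosomal protein gene (vertical axis, array median at 0) on the array of 1 time in LPS (horizontal axis), coloured by small subunit, large subunit, or paralogue or other; black lines are group medians and grey bars run from the 25th to the 75th percentile of all genes. Both subunits lie mostly below 0 on all 5 arrays, with large subunit medians of -0.58 at 0 h and -0.81 at 21 h, while the paralogues and other symbols scatter around 0.

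The number of members at least 1.5-fold below embryo was 32 at 0 h (16.6% of all genes), 31 at 0.5 h (15.7%), 53 at 2 h (18.1%), 28 at 7 h (17.6%) and 49 at 21 h (14.9%). The small subunit had medians of -0.54, -0.49, -0.70, -0.40 and -0.75 at 0, 0.5, 2, 7 and 21 h. The large subunit had -0.58, -0.61, -0.70, -0.57 and -0.81. The pooled SD between probes of one subunit gene was 0.54 at 0 h and 0.64 at 21 h, more than the SD between gene means (0.29 and 0.36).

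The lowest mean ratios belonged to Rps19, Rpl3l, Rpl22 and Rpl10. Rps19, a small subunit protein whose human gene is mutated in Diamond-Blackfan anaemia, read -1.32, -1.97, -2.04, -1.37 and -1.72 at 0, 0.5, 2, 7 and 21 h. Its mean rests on 1 of 3 probes, which read between -4.36 and -2.61 while the other 2 read between -1.51 and -0.53. Rpl10, a late-joining protein of the large subunit, read -1.25, -1.07, -1.44, -0.96 and -1.72 on 2 probes outside the affected runs. Rpl22 read -1.12, -1.50, -1.18, -1.78 and -1.39; in mouse its loss blocks development of one class of T cells. Rpl3l, the paralogue of Rpl3 made in striated muscle, was at -1.67, -1.42, -1.25, -1.53 and -1.46, low on all arrays on its single probe.

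At the other end stood Rps23rg1, Rpl10a, Rpl36al and Rps27l. Rpl10a, a large subunit protein, was the only subunit gene above the array median on all 5 arrays, at 0.39, 0.64, 0.20, 0.57 and 0.29 on 1 probe. Rps27l, a p53-responsive paralogue of Rps27, was measured by 13 probes and read 0.12, 0.30, 0.10, 0.20 and 0.13. Rps27 itself read -0.41, -0.004, -0.71, -0.59 and -0.70, so the pair lay on opposite sides of the array median on all 5 arrays, with Rps27 all but at the median at 0.5 h. Rps23rg1, a retroposed copy of Rps23 described in mouse, read 0.37, 1.08, 0.86, 0.33 and 0.27, with 5 of 6 probes in affected runs.

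Against 0 h, the members lay close to their starting values at 0.5 h, and most stood lower at 2 h and at 21 h. The median difference from 0 h was 0.04 at 0.5 h, -0.10 at 2 h, 0.08 at 7 h and -0.18 at 21 h, beside 0.08, 0.07, -0.00 and 0.02 for all genes. The number of members below their 0 h value was 31 of 73 at 0.5 h (40.8% of all genes), 60 at 2 h (44%), 27 at 7 h (50.1%) and 57 at 21 h (47.5%). All 4 differences share the 0 h array. The values at 21 h depended on the affected runs and the centring: the median was -0.11 over the 65 members left without the affected runs, with 64.6% of them below 0 h, and -0.32 without centring. The share of all genes below 0 h was not computed without the affected runs, so 64.6% cannot be set against 47.5%. The 2 h median was -0.16 with the median over probes in place of the mean, and -0.062 without the affected runs. Without centring the 7 h median was -0.14, opposite in sign, since leaving it out shifts the median of all genes at 7 h by -0.22 and at 21 h by -0.15.

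At least 1.2-fold lower than 0 h were 6 members at 0.5 h (17.1% of all genes), 13 at 2 h (21.7%), 6 at 7 h (26.4%) and 25 at 21 h (20.9%). At least 1.2-fold higher were 8 at 0.5 h (30.2%), 7 at 2 h (36.1%), 14 at 7 h (26.8%) and 0 at 21 h (26.1%). At 21 h, 8 members were at least 1.5-fold lower (6.48% of all genes), and 1, Rpl3, was at least 2-fold lower (1.45%). The members thus stood slightly lower as a group at 21 h, and no member was 1.2-fold higher.

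The comparison of 21 h with 7 h does not use the 0 h array. The median difference was -0.25, against 0.02 for all genes, and 62 of 73 members were lower at 21 h (47.1% of all genes). At least 1.2-fold lower were 36 (20.3%), at least 1.5-fold lower 11 (5.9%), and at least 1.2-fold higher 3 (24%). Among the 3015 genes with 2 or more probes these counts were 549, 135 and 586. Without the affected runs the median was -0.24, and without centring -0.18. 55 of 73 members had a 7 h value above both their 2 h and their 21 h values, against 30.6% of all genes; this order was noticed in the members' values and then counted.

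**Figure D2:**
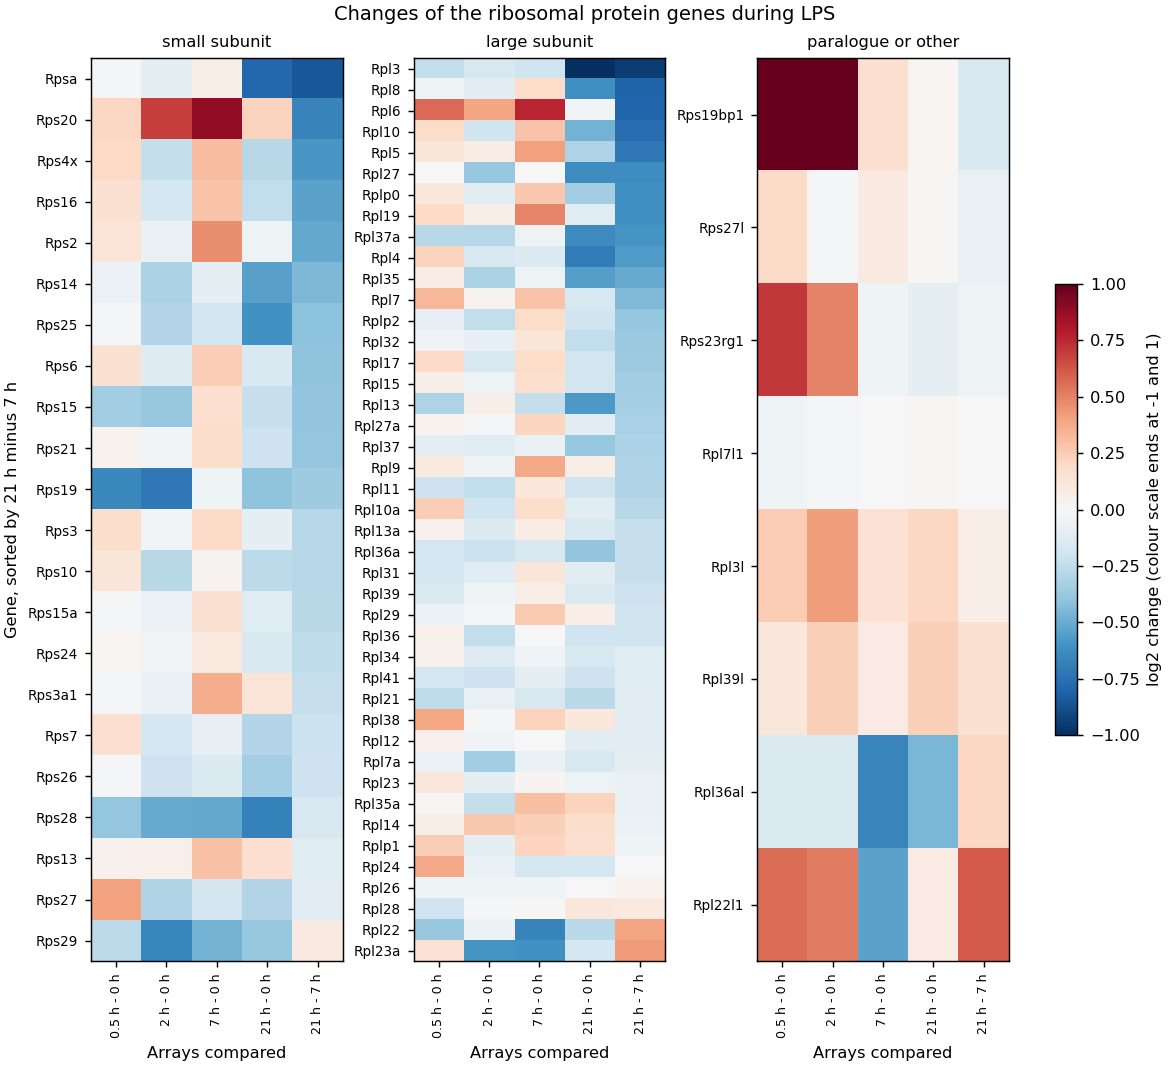
Colour gives the difference in log2 ratio of each ribosomal protein gene (rows, sorted by 21 h minus 7 h within small subunit, large subunit, and paralogue or other) between the 2 arrays named under each column; the scale ends at -1 and 1. The right-hand column is blue (below 0) for 21 of 22 small subunit and 38 of 43 large subunit genes, against 47.1% of all genes. In it, 5 of the 8 paralogues and other symbols are above 0.

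By role, the small subunit had a median of -0.25 at 21 h against 0 h and -0.32 against 7 h. At 21 h, 19 of its 22 genes were below 0 h, against 47.5% of all genes. The large subunit had -0.18 and -0.28, with 36 of 43 genes below 0 h at 21 h, beside the same 47.5%. Without the affected runs the medians against 0 h were -0.11 over 18 small subunit genes and -0.13 over 40 large subunit genes. The 8 paralogues and other symbols had 0.01 and 0.03 on all their probes. The difference between the groups of symbols was not tested, and the 8 include genes that are not components of the ribosome.

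Among small subunit genes, Rpsa stood farthest below its 0 h value at 21 h. This protein is also known as a laminin receptor precursor. It read -0.46, -0.48, -0.55, -0.40 and -1.25 at 0, 0.5, 2, 7 and 21 h, flat on the first 4 arrays and low on the last. The difference at 21 h was -0.79 (SD 0.59 over 6 probes), 1.73-fold lower than 0 h, with 6 of 6 probes below 0 and the 4 lowest between -1.48 and -0.85. Of the 6 probes, 3 lie in affected runs and gave -1.33, -1.48 and -0.87; the other 3 gave -0.15, -0.04 and -0.85.

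Rps28, on 1 probe in an affected run, read -0.32, -0.71, -0.83, -0.83 and -0.99, already low at 0.5 h and 0.68 below 0 h at 21 h. Rps25 read -0.30, -0.31, -0.59, -0.49 and -0.90, a step down at 2 h and again at 21 h. Its difference at 21 h was -0.60 (SD 0.13, 2 probes). Rps14, whose human gene lies in the region lost in the 5q- syndrome, read -0.24, -0.30, -0.56, -0.33 and -0.78, with all 4 probes below 0 at 21 h against both 0 h and 7 h.

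Rps6, the subunit phosphorylated by the S6 kinases downstream of mTOR, read -0.85, -0.70, -0.98, -0.61 and -1.01; 4 of 5 probes were below 0 at 21 h, and the difference was -0.16 (SD 0.30). Rps3, which lines the mRNA entry site, read -0.54, -0.36, -0.57, -0.35 and -0.64 over 9 probes, highest at 0.5 h and 7 h. Rps10 read -0.46, -0.34, -0.74, -0.43 and -0.72, and its 2 probes agreed at 21 h (-0.26, SD 0.00). Rps20 stood higher at 2 h and 7 h, at -0.65, -0.44, 0.04, 0.24 and -0.43. Its probes disagreed: one gave 1.49 and 1.62 above 0 h at 2 h and 7 h, the other -0.11 and 0.16.

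Among large subunit genes, Rpl3, which helps to form the peptidyl transferase centre, read -0.54, -0.78, -0.70, -0.74 and -1.68. It was 2.21-fold lower at 21 h than at 0 h, but on 1 probe in an affected run. Rpl4, whose extension reaches into the exit tunnel, read -0.92, -0.69, -1.07, -1.05 and -1.62 on 5 probes, none in an affected run. Its difference at 21 h was -0.70 (SD 0.18), 1.63-fold lower, with 5 of 5 probes below 0, and its difference from 7 h was -0.57 (SD 0.16).

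Rpl8, near the peptidyl transferase centre, read -0.48, -0.52, -0.59, -0.29 and -1.09 on 3 probes outside the affected runs. Its 3 probes gave almost the same difference between 21 h and 7 h (-0.80, SD 0.02). Rpl27 read 0.04, 0.04, -0.33, 0.05 and -0.58, lower at 2 h and 21 h in all 3 probes. Rpl6 read -0.998, -0.43, -0.60, -0.23 and -1.02, high on the 3 middle arrays and back at its 0 h value at 21 h. Rpl19 read -0.69, -0.49, -0.63, -0.20 and -0.81, with all 4 probes lower at 21 h than at 7 h.

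The stalk proteins Rplp0, Rplp1 and Rplp2, which recruit the elongation factors, had unlike values at 21 h. Rplp0 read -1.01, -0.91, -1.12, -0.75 and -1.36, with a difference of -0.35 (SD 0.35, 5 probes) at 21 h and -0.61 from 7 h in 5 of 5 probes. Rplp2 read -0.26, -0.34, -0.50, -0.07 and -0.46, and Rplp1 -0.53, -0.29, -0.63, -0.32 and -0.37. At 21 h Rplp1 was 0.16 above 0 h while the other two were below it.

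Rpl5 and Rpl11, which with 5S ribosomal RNA bind the p53 regulator Mdm2, were lower at 21 h than at 7 h by different amounts. Rpl5 read -1.09, -0.97, -1.02, -0.69 and -1.40, and was 0.71 lower at 21 h than at 7 h in 3 of 3 probes. Rpl11 read -0.34, -0.55, -0.59, -0.23 and -0.54, a difference of -0.30 from 7 h in 5 of 6 probes. Rpl23 and Rpl26, which also bind Mdm2 or act on p53, differed by -0.08 and 0.04. Rpl13a, known in human monocytes for silencing translation after interferon gamma, read -0.79, -0.74, -0.92, -0.71 and -0.94. Rpl38, needed in mouse for translation of Hox mRNAs, read -0.67, -0.29, -0.69, -0.45 and -0.56.

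The remaining members with many probes stayed near each other. Rps16 (8 probes) read -0.67, -0.52, -0.85, -0.39 and -0.92, lower at 21 h than at 7 h in 8 of 8 probes. Rps21 (6 probes) read -0.42, -0.38, -0.45, -0.25 and -0.63, and Rpl37 (8 probes) -0.42, -0.51, -0.54, -0.48 and -0.80, both lower against 7 h in every probe. Rps24 (8 probes) read -0.74, -0.72, -0.77, -0.65 and -0.90. Rps15a (6 probes) read -0.53, -0.54, -0.59, -0.38 and -0.65. In both, the 21 h value was the lowest of the 5, by less than the SD between probes. Rpl27a (7 probes) read -0.84, -0.81, -0.87, -0.63 and -0.95, and Rpl41 (12 probes), the shortest ribosomal protein, -0.48, -0.66, -0.69, -0.57 and -0.69. Rpl12 (6 probes) read -0.30, -0.25, -0.34, -0.30 and -0.41, with an SD of 0.93 between probes at 21 h, so its difference of -0.10 is not distinguishable from 0.

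Other members at the ends of the order at one time were Rps15, Rps29, Rps2 and Rpl35a. Rps15, on 1 probe in an affected run, read -0.49, -0.84, -0.86, -0.32 and -0.72. Rps29 read 0.06, -0.20, -0.60, -0.41 and -0.32, lowest at 2 h, where its probes had an SD of 0.81. Rps2 read -0.63, -0.50, -0.69, -0.16 and -0.67, high at 7 h alone. Rpl35a read -0.39, -0.37, -0.63, -0.09 and -0.17, and its 2 probes, both in affected runs, were above 0 h at 21 h. Rpl7 read -0.73, -0.40, -0.70, -0.45 and -0.90, with a small but even difference at 21 h (-0.16, SD 0.05, 2 probes).

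A few members were above 0 between 7 h and 21 h. Rpl23a read 0.01, 0.15, -0.60, -0.60 and -0.17 on 1 probe. Rpl22 was 0.40 higher at 21 h than at 7 h, with 1 of 2 probes below 0 and an SD of 0.82. Its paralogue Rpl22l1 read -0.06, 0.50, 0.46, -0.59 and 0.02, and its 3 probes disagreed at 21 h, at 1.67, 0.06 and -1.49. At 21 h against 0 h the highest members were Rpl39l (0.23), Rps20 (0.23), Rpl35a (0.23) and Rpl3l (0.21); Rpl39l is a paralogue of Rpl39 made mainly in testis. Rpl36al, a paralogue of Rpl36a, read 0.45, 0.31, 0.31, -0.21 and -0.0024, and Rpl7l1, a paralogue of Rpl7, stayed between -0.08 and -0.02 on all 5 arrays.

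Rps19bp1, which binds Rps19 and the deacetylase Sirt1, had the largest positive differences from 0 h at 0.5 h and 2 h (1.03 and 1.53), reading -0.86, 0.17, 0.68, -0.69 and -0.84. They came from 1 of 2 probes, in an affected run, which stood 2.00 and 3.36 above 0 h at 0.5 h and 2 h. The other probe gave 0.06 and -0.29. Rpl13 likewise held 1 probe between -5.01 and -3.23 beside 4 between -1.54 and 1.82.

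The probes gave the same picture as the gene means. At 21 h against 7 h, 203 of 246 subunit probes were below 0 (82.5%), against 48.9% of all probes and 14 of 30 probes of the paralogues and other symbols. Rps27l held 13 of those 30 probes and Rps23rg1 held 6, so this count rests mostly on few genes. Of the 59 subunit genes with 2 or more probes, 28 had every probe below 0 and 0 had every probe above 0. At 21 h against 0 h, 182 of 246 subunit probes were below 0 (74%, against 46.1% of all probes). Of the 59 genes, 19 had every probe below 0 and 2 every probe above. These counts of genes with agreeing probes were not made over all genes. Such counts depend on the probes per gene, on average 4.07 for these 59 and 2.71 for all genes with 2 or more. The pooled SD between probes of one subunit gene was 0.44 for 21 h against 0 h and 0.37 for 21 h against 7 h. Most gene means did not differ from 0 by more than this. It is the spread of single probes and not the error of a gene mean. Probes of one gene share their array, and processed copies of ribosomal protein genes are many in mouse, so a probe may also have bound transcripts of a copy.

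**Figure D3:**
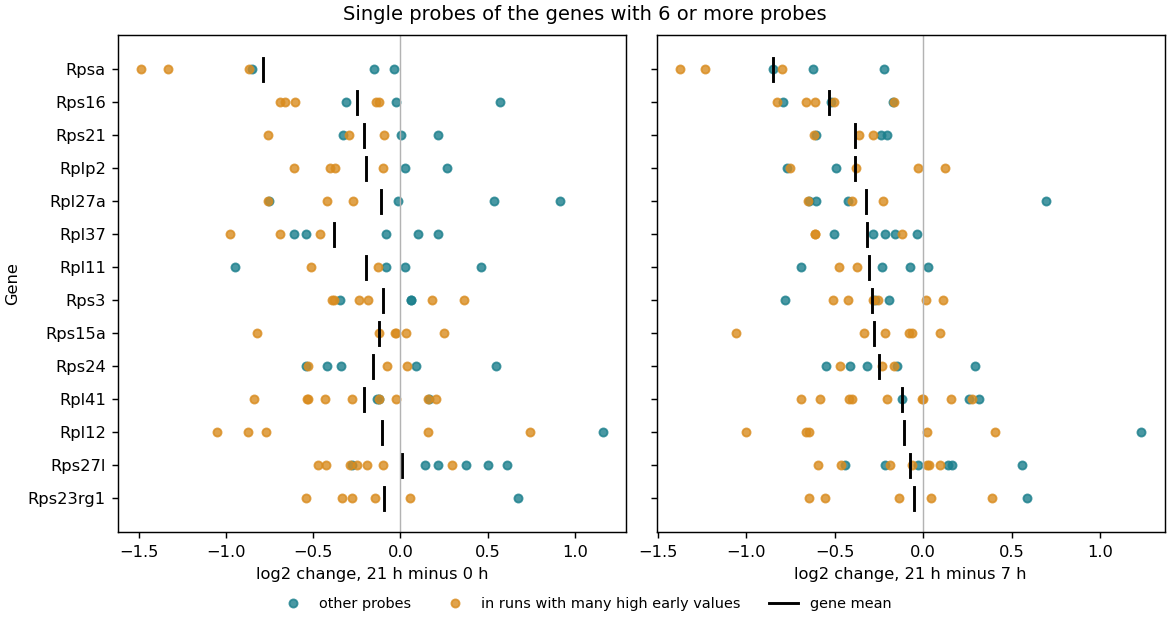
Each point is the difference in log2 ratio of 1 probe (horizontal axis), at 21 h against 0 h on the left and against 7 h on the right, for the 14 members with 6 or more probes (rows); orange points lie in affected runs and black bars are gene means. Rpsa has the lowest mean in both panels, and Rpsa, Rpl37, Rps16 and Rps21 have every probe below 0 against 7 h.

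Subunit genes with and without probes in the affected runs had similar medians at 21 h. The 9 with none had -0.18 against 0 h and -0.28 against 7 h. The 56 with at least 1 had -0.20 and -0.31. Some of these 56 also have probes outside the affected runs, so the split does not isolate the affected probes. Leaving those probes out gave all members a median of -0.11 against 0 h, beside -0.18 with them. Against 7 h it gave -0.24 beside -0.25. The share of members below 0 h at 21 h was then 64.6% beside 78.1%, and the share below 7 h was 72.3% beside 84.9%. Shares of all genes were not computed without those probes, and the arrays were not centred again. The 24 subunit genes with a C and T run of 8 or more bases had a median of -0.24 between 7 h and 21 h. The 27 with a shorter run had -0.32. The run was taken anywhere in the printed window, often away from the start, so this split does not measure a TOP tract. A link of the values to the TOP tract was not tested.

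Other genes of protein synthesis were taken from lists of known function. The TOP mRNAs that do not encode ribosomal proteins had the lowest medians of these lists at 21 h. These medians were -0.40 against 0 h and -0.44 against 7 h, with 14 of 17 genes below 0 h (47.5% of all genes). Eef1a1, the elongation factor that brings aminoacyl-tRNA to the ribosome, read -0.57, -0.45, -0.68, -0.29 and -1.56, lowest on the last array. Its difference from 7 h was -1.27. Vim, an intermediate filament gene, was 0.73 lower at 21 h than at 0 h, while Naca and Eif4b stood 0.37 and 0.67 higher.

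Ribosome biogenesis genes had a median of -0.13 at 21 h against 0 h and -0.21 against 7 h. At 21 h, 32 of 50 were below 0 h, against 47.5% of all genes. Without the affected runs these medians were 0.026, above 0, and -0.084 over 38 genes. Bop1, a processing factor of the large subunit, read -0.17, -0.35, -0.35, -0.40 and -1.23. Translation factors outside the TOP list had 0.05 and -0.11 (28 genes), and mitochondrial ribosomal proteins -0.03 and -0.03 (72 genes). The sign of the first value of each depends on the processing: without centring the translation factors had -0.099, and without the affected runs the mitochondrial ribosomal proteins had 0.027. Fau, whose product is cut to release the small subunit protein eS30, read -0.06, 0.13, 0.11, 0.20 and -0.26. Of 17 regulators of ribosomal protein synthesis, 8 were below 0 h at 21 h, near the share of all genes (47.5%). Myc, which drives ribosome synthesis, read 0.62, 1.91, 1.52, -0.29 and -1.03 on 1 probe in an affected run, high at 0.5 h and 2 h and low at 21 h. Mdm2 was 1.12 higher at 21 h than at 0 h.

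**Figure D4:**
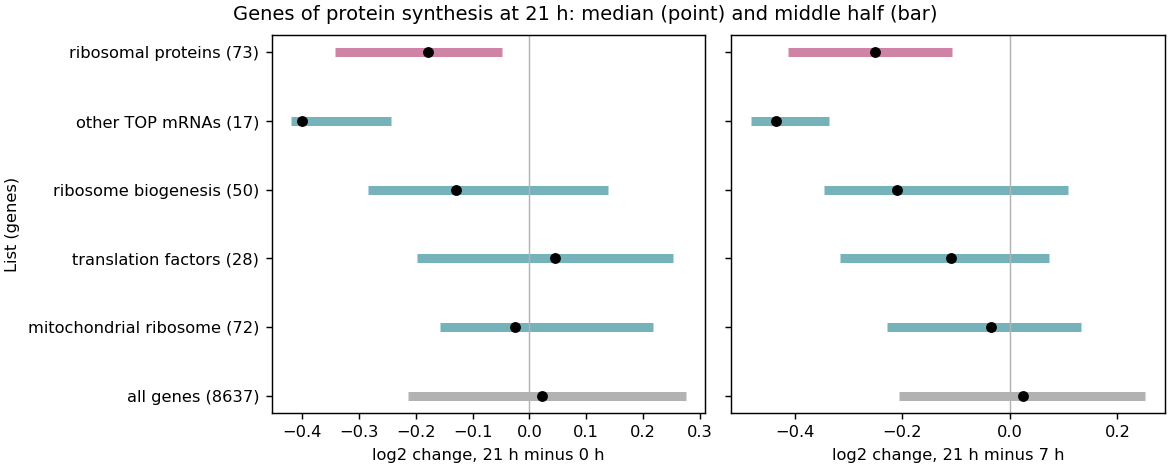
Points are median differences in log2 ratio (horizontal axis) at 21 h against 0 h (left) and against 7 h (right) for the ribosomal protein genes and other lists (rows, number of genes in brackets); bars run from the 25th to the 75th percentile of each list. Ribosomal proteins (-0.18 and -0.25) and the other TOP mRNAs (-0.40 and -0.44) lie below all genes, and the mitochondrial ribosome (-0.03 and -0.03) lies next to 0.

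Markers of other cells were measured on the same arrays. 5 of 7 neutrophil markers were lower at 21 h than at 0 h (47.5% of all genes), with a median of -0.37. Ngp, a neutrophil granule protein, read 1.14, 1.54, 1.73, 1.36 and -0.48, and Mpo 0.22, 0.65, 0.32, 0.18 and -1.03. Mmp9, a gelatinase on the same list, was 1.86 higher. The macrophage markers had a median difference of 0.35 (13 genes), the embryo markers 0.12 (42 genes) and the erythroid markers 0.07 (11 genes). B cell markers had 0.39 (4 genes, 3 above 0 and 1 below), and markers of T and natural killer cells 0.34 (2 genes, both above 0). 29 of 33 cell cycle genes were below 0 h at 21 h (47.5% of all genes), with a median of -0.95. The part of these in the lower ribosomal protein values was not tested.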

How the data were processed

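RNA of 5 macrophage samples, 1 per time, was measured against whole embryo RNA on two-colour cDNA arrays. The authors deposited 1 log ratio for each probe, read here as log10; the labels give 2 channels and an amino-allyl Cy3 labelling, and the authors' normalization, log base and dye directions are not given in the sources used here. Values were multiplied by 3.32, centred on each array's median over the 18296 probes on all 5 arrays, and averaged over probes with 1 gene symbol (platform annotation of 2008, symbols updated through RefSeq, GRCm38.p6; 72 of 73 members matched). Of 19828 probes, 14759 had 1 symbol, 170 several and 4899 none listed. Python 3.11.15, numpy 2.4.6, pandas 2.3.3 and scipy 1.17.1 were used. The summaries recovered shifts planted in simulated arrays. Those arrays had even noise, the same shift for every member and no affected runs, so this checks the calculation and not these data.

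A run of 96 probe numbers counted as affected when, at 0.5 h or at 2 h, at least 10% of its probes measured on that array and at 0 h were 2-fold or further above 0 h. This denominator gave 94 runs and was kept because it equals the number in earlier work on these data. Taking probes on all 5 arrays gave 92 runs, and taking all probes in the run gave 90; without those runs the members' median at 21 h was -0.13 and -0.10.

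Members and lists were chosen with earlier results of these data known. Genes named are the 4 lowest and 4 highest members at each time and by mean ratio, those with 6 or more probes, those beyond 2 SD over their own probes at 21 h, and members with further known roles; others were named after their values were seen. With 1 array per time, no test was run, and members are described beside all genes at 1.2-fold, 1.5-fold and 2-fold. Alternatives are given in the closing section.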

Additional observations from a re-analysis of the deposited data

Results flagged for a closer look

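The ribosomal protein genes lay on opposite sides of their 0 h values at the last 2 times: their median difference from 0 h was -0.18 at 21 h and 0.08 at 7 h. The difference between the times was not tested, both share the 0 h array, and the sign at 7 h depends on the centring.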

How the results depend on the processing

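No paired analysis was possible because each time has 1 array and the labels give no replicate numbers. 297 values were recomputed over 27 results and 13 settings, 1 of them (leaving out 4 members with a probe beyond 10-fold from the array median) chosen after seeing the data. Each was set beside a 95% interval of the main median or share, which covers the spread over members only. The interval treats genes measured on the same arrays as independent and holds no error between arrays. 250 values lay inside it, 46 lay outside it, and 1, the 7 h median without centring, lay on the other side of 0 from an interval that did not hold 0. These counts therefore do not measure the precision of any time. In all, 16 values in 8 results had the opposite sign. Some of the 250 could not change. Keeping only the fixed subunit lists leaves the medians of each subunit and of the other lists as they were. The log base leaves the shares of members lower as they were. Apart from the log base, the members' median at 21 h ranged in these settings from -0.32 to -0.11 against 0 h. Against 7 h it ranged from -0.31 to -0.18, and both were below 0 throughout. Defining affected runs over all probes, which is not among the settings, gave -0.10 against 0 h. The median at 0.5 h ranged from -0.086 to 0.12 and has no settled sign, and the sign also turned for translation factors (-0.099 without centring) and ribosome biogenesis (0.026 without the affected runs) at 21 h against 0 h, and under at least 1 setting for the mitochondrial ribosome and the 17 regulators against both 0 h and 7 h. The causes were not tested.

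Without centring, the 7 h median was -0.14, opposite in sign; the 21 h median was -0.32 against 0 h and -0.18 against 7 h, the small and large subunits -0.40 and -0.32 at 21 h, other TOP mRNAs -0.55, ribosome biogenesis -0.27 and the mitochondrial ribosome -0.17. The levels against embryo were then -0.41 at 0 h, -0.53 at 2 h and -0.62 at 7 h, and 90.4% of members were lower at 21 h and 67.1% at 2 h (main values 78.1% and 82.2%). Without the affected runs, the level at 0 h was -0.67, the differences from 0 h were 0.12 at 0.5 h and -0.11 at 21 h (small subunit -0.11), and 64.6%, 67.7% and 72.3% of members were lower at 21 h, at 2 h and between 7 h and 21 h (main value of the last 84.9%). Since these runs were picked by values at 0.5 h and 2 h against 0 h, the early differences without them are not independent of the choice. With each run centred, the level at 0.5 h was -0.65 and the differences at 0.5 h and 2 h were -0.086 and -0.16. The 2 h difference was -0.16 with the median over probes and -0.16 with each probe alone (65.6% lower). With the mean of 0 h and 0.5 h as baseline, without the affected runs, 66.2% were lower at 2 h. Shares of all genes lower were not computed without centring, without the affected runs or with another baseline. The shares of members lower in those settings therefore have no share of all genes beside them. Quantile normalization gave other TOP mRNAs -0.45 at 21 h and -0.50 against 7 h. With 0.5 h as baseline, the 21 h medians were -0.42 for other TOP mRNAs, -0.18 for translation factors, -0.24 for ribosome biogenesis and -0.17 for the mitochondrial ribosome.

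Read as log2, the levels were -0.16, -0.16, -0.21, -0.16 and -0.23 at 0, 0.5, 2, 7 and 21 h, and the differences -0.029 at 2 h, -0.054 at 21 h and -0.076 between 7 h and 21 h. The small and large subunits were then -0.076 and -0.054 at 21 h and -0.097 and -0.084 against 7 h, and other TOP mRNAs -0.12 and -0.13.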

Other observations

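Of the probes of ribosomal protein symbols left out by the rule, 16 had no value on at least 1 array and 4 carried several symbols. 3 of the latter carry Rpl30, a large subunit protein, beside a second symbol. They stood below the array median on all 5 arrays, and read -1.16, -1.61 and -0.79 at 21 h, against -1.02, -0.89 and -0.94 at 0 h.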
